A study of Mus musculus with 8 samples.

Results

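The Sult2a hydroxysteroid sulfotransferases Sult2a1, Sult2a2, Sult2a3 and Sult2a5 were followed in mouse liver RNA, as 4 of the 22013 genes of the deposited table. They were taken by symbol, and because they had been picked for how they differ between these same groups, their own values stand here as a description without a test. Poly(A)-selected liver RNA was sequenced in 8 libraries, 4 labelled resmetirom and 4 labelled control. The series is about metabolic dysfunction-associated steatohepatitis, the inflamed form of fatty liver, modelled by feeding mice fructose, palmitate and cholesterol over 12 weeks. Resmetirom, an agonist that prefers thyroid hormone receptor beta, was given into the peritoneum at 5 mg/kg/day for 8 weeks, starting once 4 weeks of feeding had passed, in a vehicle of 0.5% CMC-Na and 0.4% Tween-80. No source used here gives strain, sex or age, neither diet nor vehicle is stated for the control samples, and no label ties a library to an animal of its own, so any p-value measures the spread between these libraries.

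SULT2A enzymes move a sulfonate group from PAPS, the activated form of sulfate, onto hydroxyl groups of steroids and bile acids, which makes them more water-soluble and favours their export. Dehydroepiandrosterone is their classic steroid substrate, and in human liver SULT2A1 also sulfates bile acids. In mouse liver these genes are known as female-predominant, with little transcript in adult males, and their level is known to follow the sex-dependent pattern of pituitary growth hormone.

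In the resmetirom libraries the 4 genes together held 32031, 10435, 20849 and 25547 reads in replicates 1 to 4, against 3, 0, 6 and 0 reads in the control libraries. Every resmetirom library thus had at least 10435 Sult2a reads, and no control library had more than 6. These reads made up 0.0587 to 0.191% of all gene counts in resmetirom livers and at most 3.11e-05% in control livers. Library totals were 16787561 to 18682190 in the resmetirom group and 17436759 to 19887539 in the control group.

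**Figure D1:**
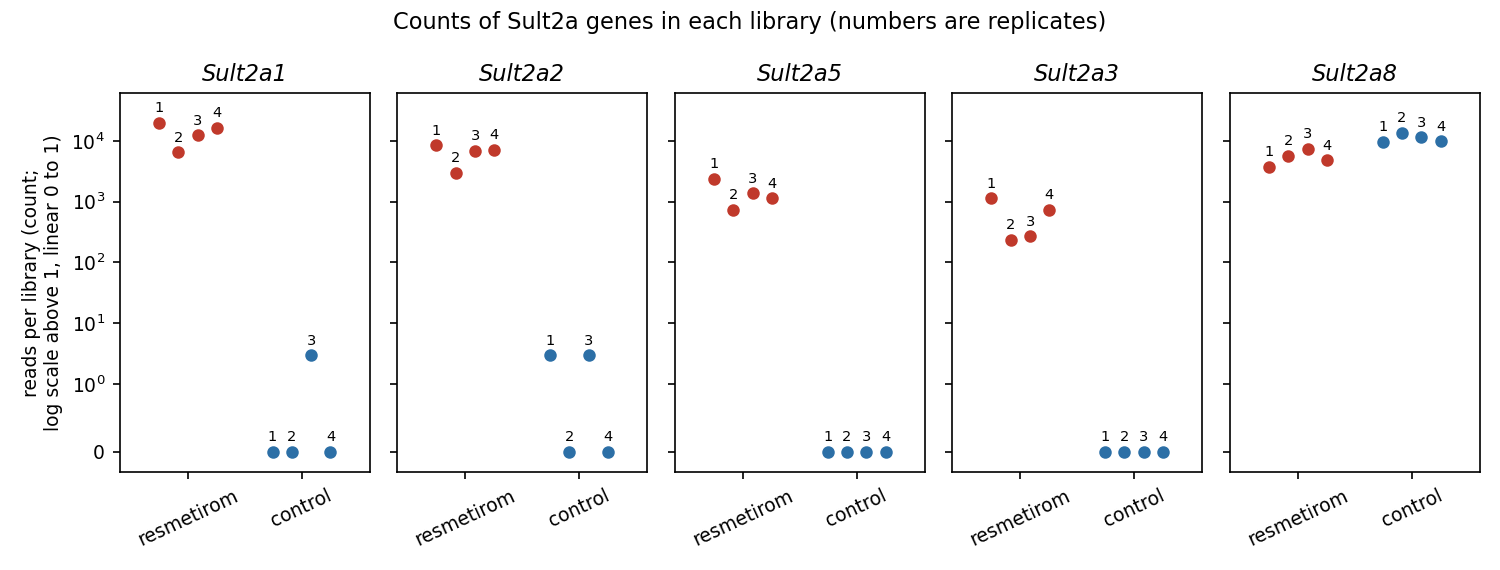
Deposited read counts of the 4 Sult2a genes and of their neighbour Sult2a8 in each library, resmetirom left and control right, with replicate numbers beside the points (vertical axis logarithmic above 1 and linear from 0 to 1). The 4 genes hold 235 to 20007 reads in resmetirom libraries and 0 or 3 in control libraries, while Sult2a8 is abundant in all 8.

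Sult2a1, the most abundant of the 4 and the mouse namesake of the human enzyme, had 20007, 6465, 12338 and 16539 reads in resmetirom replicates 1 to 4, against 0, 0, 3 and 0 in the control replicates. As CPM, read counts scaled to library size with TMM factors that correct for differences in composition, this was 1127, 420, 821 and 1120 CPM in resmetirom livers (872 ± 334, SD, n = 4) and 0.0341 ± 0.0681 CPM in control livers (SD, n = 4). Replicate 2 was the lowest resmetirom library, and still stood far above control replicate 3, the only control library with a read. The ratio of the summed counts, 55349 in resmetirom against 3 in control libraries, was 24742, with an exact 95% binomial interval of 8466 to 119982. Intervals and floors here cover counting error only.

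Sult2a2, its closest relative, had 8511, 3000, 6859 and 7137 reads in resmetirom replicates 1 to 4, against 3, 0, 3 and 0 in control. Its level was 403 ± 140 CPM in resmetirom livers and 0.0690 ± 0.0796 CPM in control livers (SD, n = 4 each). The groups were far apart again, with replicate 2 the lowest of the resmetirom libraries at 195 CPM and the other 3 between 456 and 483 CPM. The ratio of summed counts, 25507 to 6, was 5701 (exact 95% binomial interval 2619 to 15537).

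Sult2a5 had 2371, 735, 1380 and 1138 reads in the resmetirom libraries and 0 in every control library. Its resmetirom level was 87.5 ± 35.7 CPM (SD, n = 4). With 5624 reads against none, it was at least 2514-fold higher in resmetirom, set against a floor of 3 counts over the whole control group, or 0.0355 CPM.

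Sult2a3, the least abundant of the 4, had 1142, 235, 272 and 733 reads in the resmetirom libraries and 0 in every control library, at least 1065-fold more for 2382 reads against the same floor. Its resmetirom level of 36.8 ± 24.1 CPM (SD, n = 4) varied most among the members. The highest resmetirom library exceeded the lowest 4.22-fold for Sult2a3, against 2.69-fold for Sult2a1, 2.48-fold for Sult2a2 and 2.80-fold for Sult2a5.

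All 4 members passed the filter on low counts through their resmetirom libraries, and the groups did not overlap for any of them. Among the 12207 genes tested, 6.32% had non-overlapping groups with resmetirom higher and 5.5% with resmetirom lower, shares that say nothing about these genes, since they were chosen on this contrast. As a sum, the family stood at 1804, 677, 1387 and 1730 CPM in resmetirom livers (1400 ± 515, SD, n = 4) and at 0.140, 0, 0.272 and 0 CPM in control livers (0.103 ± 0.131, SD, n = 4). The ratio of summed counts was 13241 (exact 95% binomial interval 6975 to 28958), or 13.69 on the log2 scale. In bulk liver, a difference in the number of cells that carry a transcript and one in the amount per cell cannot be told apart.

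The authors' deposited table lists log2 ratios of mean TPM, which also scales reads by transcript length, of 14.16 for Sult2a1, 12.06 for Sult2a2, 16.82 for Sult2a5 and 15.66 for Sult2a3. In the authors' deposited table the control means of Sult2a5 and Sult2a3 are written as 0.001, since all of their control values are 0. Their ratios in that table depend on this constant and are no measure of size.

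The genes sit in a cluster of 8 Sult2a genes on chromosome 7 (GENCODE M21 on GRCm38, the assembly of the mm10 build named in the submitters' processing notes), between positions 13623967 and 14494230. In order, Sult2a5 lies at 13623967 to 13670807 and Sult2a2 at 13733505 to 13779636, both on the plus strand. Sult2a1 (13796246 to 13837409), Sult2a4 (13909676 to 13989607), Sult2a3 (14067446 to 14123044), Sult2a6 (14222403 to 14254870), Sult2a8 (14410686 to 14446769) and Sult2a7 (14465051 to 14494230) follow on the minus strand. The 4 genes with high resmetirom counts therefore do not form an unbroken block, since the silent Sult2a4 lies between Sult2a1 and Sult2a3.

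The annotation gives Sult2a1, Sult2a3 and Sult2a5 1 transcript each of 6 exons, with a coding length of 855 bases. Sult2a2 has a shorter model of 4 exons with 582 coding bases, so that its TPM rests on an exonic length 0.7265 times that of Sult2a1. The deposited counts and TPM of the resmetirom libraries imply a length ratio of 0.7265 to 0.7266 for this pair, the same as the annotation.

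Because these copies are alike, the sequence decides how far reads can be told apart. Over aligned coding bases the 4 members were 93.5 to 97.9% identical in their 6 pairs. Sult2a1 and Sult2a2 had the fewest differences, 12 over 582 aligned bases. Sult2a5 and Sult2a3 had the most, 56 over 855 aligned bases. Against Sult2a8 the identity was 69.4 to 75.1%. A 90-base stretch is shown, coding bases 217 to 306 of Sult2a1, with the aligned bases of the others. In Sult2a1 it lies in exon 2, on the minus strand of chromosome 7 from 13836000 to 13836089 (GRCm38). It was picked, among stretches without gaps, as the one where the 4 members differ at the most positions. The members are therefore less alike in it than over their whole coding sequence. Capitals mark bases that differ from Sult2a1.
Sult2a1: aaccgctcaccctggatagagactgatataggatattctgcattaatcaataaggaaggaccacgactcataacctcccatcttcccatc
Sult2a2: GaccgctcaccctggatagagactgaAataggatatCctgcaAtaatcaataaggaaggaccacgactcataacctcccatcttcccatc
Sult2a5: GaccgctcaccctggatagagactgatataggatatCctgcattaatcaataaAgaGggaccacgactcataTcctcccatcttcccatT
Sult2a3: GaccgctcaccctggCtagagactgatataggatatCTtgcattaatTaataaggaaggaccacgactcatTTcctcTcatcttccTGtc
Sult2a8: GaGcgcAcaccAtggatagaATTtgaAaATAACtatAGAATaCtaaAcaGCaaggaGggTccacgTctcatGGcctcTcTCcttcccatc
In this stretch Sult2a2 differed from Sult2a1 at 4 bases, Sult2a5 at 6, Sult2a3 at 10 and Sult2a8 at 30.

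For a read of 50 bases, 66.8% of the positions in the Sult2a1 transcript, 37.9% in Sult2a2, 65.5% in Sult2a5 and 91.6% in Sult2a3 gave a sequence found in no other annotated gene. At 150 bases the shares were 93.7%, 79.4%, 92.5% and 100%. Sult2a2 had the lowest share at both lengths, and at 150 bases its shared sequences were those of Sult2a1 and Sult2a5, so its own count is the least certain of the 4, while Sult2a3 can be separated best. Read length and the treatment of reads with several matches are not given in the sources used here. Moving reads between the 4 copies leaves the family sum as it is. At 50 bases members also shared sequences with Sult2a4, Sult2a6 and the pseudogenes Sult2a-ps1 and Sult2a-ps2, and at 100 bases with Sult2a4 and Sult2a-ps2. Reads that short could enter or leave the sum. At 150 bases members shared sequences only with each other.

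**Figure D2:**
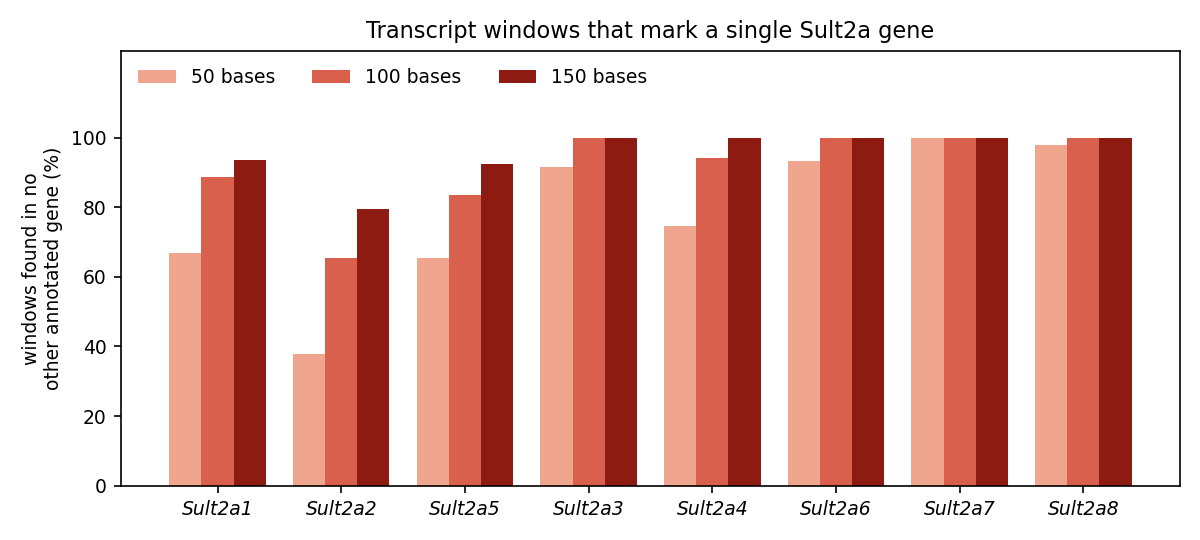
Share of sequence windows of 50, 100 and 150 bases (percent, vertical axis) in the annotated transcripts of each Sult2a gene that occur in no other annotated gene on either strand. Sult2a2 has the lowest share at every length, 37.9% at 50 bases, and Sult2a3 and Sult2a8 reach 100% at 100 bases.

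The upstream sequences show what the copies share before their start sites. RefSeq promoters (GRCm38.p6) were at hand for Sult2a5 and Sult2a3 among the 4 members, and for Sult2a4, Sult2a6 and Sult2a8. The 250 bases before the start are shown for both members, for Sult2a4, which held no read in any library, and for Sult2a8, which was abundant in both groups. They span chr7:13623717-13623966 on the plus strand for Sult2a5, and chr7:14123049-14123298, chr7:13989589-13989838 and chr7:14446588-14446837 on the minus strand for Sult2a3, Sult2a4 and Sult2a8. The starts are those of RefSeq. In GENCODE, Sult2a8 extends to 14446769 and Sult2a4 to 13989607, so these windows lie partly inside the annotated genes. Sult2a8 had 2 RefSeq entries, and its motifs were located only in the window shown. Capitals mark matches on either strand to TATAAA (the TATA box), GTTAAT (an arm of the site of the liver factor HNF1) and TTGCNNAA (a C/EBP core). The motifs AGGTCA (a nuclear receptor arm) and TTCNNNGAA (a STAT site) had no match in them.
Sult2a5: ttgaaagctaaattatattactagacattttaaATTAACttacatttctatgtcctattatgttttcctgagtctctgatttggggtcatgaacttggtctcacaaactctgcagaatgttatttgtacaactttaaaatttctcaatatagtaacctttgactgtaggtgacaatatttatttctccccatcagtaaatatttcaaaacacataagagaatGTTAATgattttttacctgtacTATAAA
Sult2a3: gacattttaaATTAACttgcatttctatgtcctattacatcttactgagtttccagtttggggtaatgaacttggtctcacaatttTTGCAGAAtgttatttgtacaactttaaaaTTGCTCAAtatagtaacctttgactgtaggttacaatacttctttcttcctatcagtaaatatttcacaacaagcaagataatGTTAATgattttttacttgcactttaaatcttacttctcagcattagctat
Sult2a4: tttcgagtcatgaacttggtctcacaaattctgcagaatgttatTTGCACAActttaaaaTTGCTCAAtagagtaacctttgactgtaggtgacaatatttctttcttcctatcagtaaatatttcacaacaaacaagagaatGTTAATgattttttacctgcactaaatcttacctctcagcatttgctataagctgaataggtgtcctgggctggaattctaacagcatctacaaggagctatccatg
Sult2a8: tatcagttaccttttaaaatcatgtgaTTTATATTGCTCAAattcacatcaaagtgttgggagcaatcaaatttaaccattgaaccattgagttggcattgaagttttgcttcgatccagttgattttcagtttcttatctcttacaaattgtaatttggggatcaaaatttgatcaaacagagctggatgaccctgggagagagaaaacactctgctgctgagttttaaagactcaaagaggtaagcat

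GTTAAT occurred 28 and 217 bases before the start in Sult2a5, 51 and 240 bases before it in Sult2a3, 107 bases before it in Sult2a4 and 71 bases before it in Sult2a6. It was not in the Sult2a8 window, which lies partly inside the annotated gene. Of 32851 RefSeq promoters searched over the same length, 6.43% held it. The copy nearest the start lies in the longest stretch common to those 4 promoters, GTTAATgatttttta, which no other of the 32851 promoters held. The promoters searched included none of Sult2a1, Sult2a2 or Sult2a7. Over aligned bases the 4 upstream sequences were 81.6 to 92.7% identical in pairs. Sult2a4 had 0 reads in all 8 libraries, and any role of the shared stretch was not tested.

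TTGCNNAA, found in 9.56% of promoters, occurred in Sult2a3, Sult2a4 and Sult2a8. TATAAA, found in 12.4%, occurred in Sult2a5 at 6 bases before the start, in Sult2a6 and, on the other strand, in Sult2a8. AGGTCA was in 14.0% of promoters and TTCNNNGAA in 7.02%, but in none of these 5, nor was any spacing of paired AGGTCA that was searched (direct repeats 4 or 1 bases apart, or inverted with no gap), ATCAAT (HNF6, in 6.72%) or TGTTTAC (FOXA, in 3.17%). These are letters in a short window and not measured binding.

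**Figure D3:**
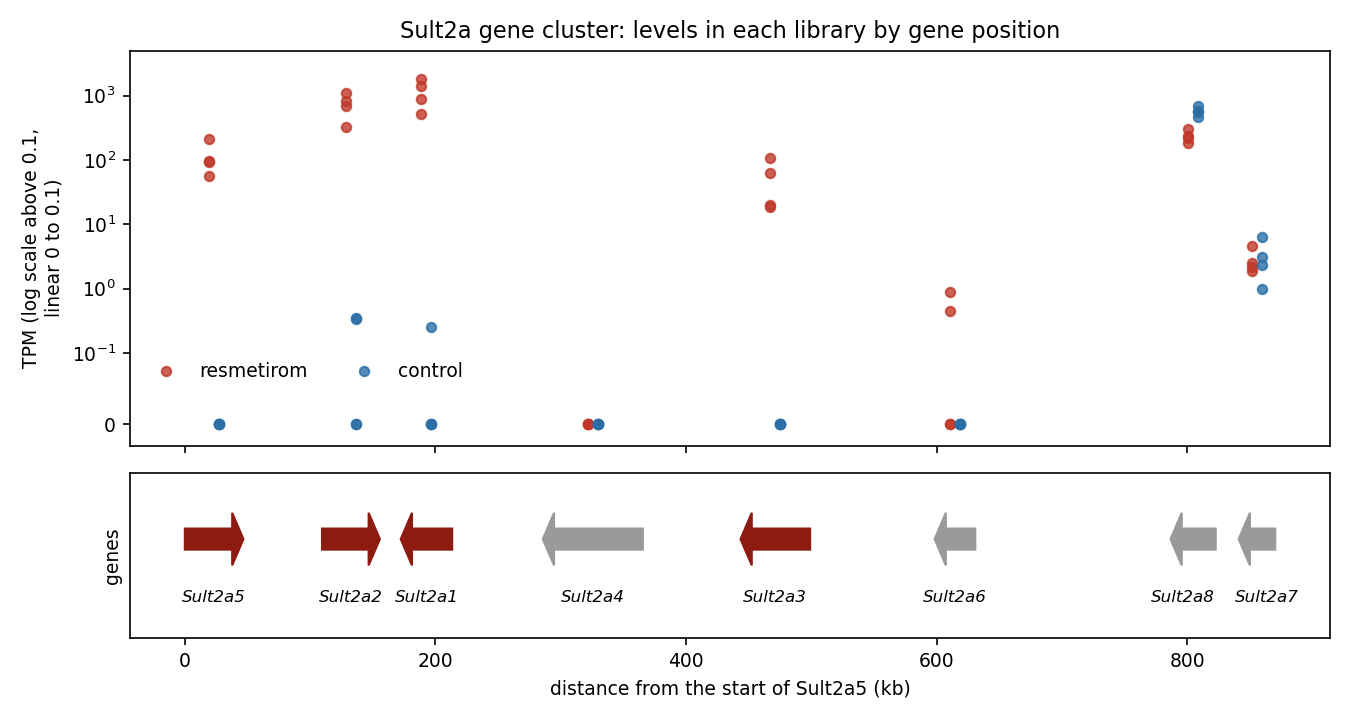
TPM of each Sult2a gene in every library (upper panel, logarithmic above 0.1 and linear below), placed by distance in kb from the start of Sult2a5, with the genes drawn to scale as arrows along their strand (lower panel, the 4 members in dark red). Resmetirom points stand left of control points. Sult2a5, Sult2a2, Sult2a1 and Sult2a3 are separated between the groups, Sult2a4 is at 0 in both, and Sult2a8 and Sult2a7 are present in both.

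Levels of different genes are compared per transcript length, in TPM. In resmetirom replicates 1 to 4 Sult2a1 stood at 1850, 516, 895 and 1399 TPM and Sult2a2 at 1083, 329, 685 and 831 TPM. Sult2a5 had 214, 57.2, 97.5 and 93.9 TPM there, and Sult2a3 106, 18.8, 19.8 and 62.1 TPM. The order from Sult2a1 through Sult2a2 and Sult2a5 to Sult2a3 held in each of the 4 libraries, although the ranges over libraries overlap between Sult2a1 and Sult2a2 and between Sult2a5 and Sult2a3.

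Sult2a1 made up 52.7 to 58.6% of the family's TPM in the resmetirom libraries, Sult2a2 33.3 to 40.4%, Sult2a5 3.93 to 6.57% and Sult2a3 1.16 to 3.25%. The ratio of Sult2a1 to Sult2a2 was 1.31 to 1.71, a narrow range beside the 2.66-fold spread of the family sum in CPM. The ratio of Sult2a1 to Sult2a3 ran from 17.5 in replicate 1 to 45.3 in replicate 3, so Sult2a3 followed the others least closely.

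Ranked by TPM among the 22013 listed genes, Sult2a1 was at place 68, 163, 96 and 73 in resmetirom replicates 1 to 4, and Sult2a2 at 103, 259, 116 and 111. Sult2a1 and Sult2a2 were thus among the more abundant transcripts of these livers. Sult2a5 ranked between 530 and 1244 and Sult2a3 between 970 and 2946.

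Sult2a8, a more distant cluster gene whose product sulfates bile acids in mouse liver, was the Sult2a transcript of the control livers. It had 3741, 5647, 7395 and 4815 reads in the resmetirom libraries, against 9662, 13592, 11380 and 9870 in the control libraries. Its level was 349 ± 116 CPM in resmetirom livers and 528 ± 90.6 CPM in control livers (SD, n = 4 each), and resmetirom replicate 3, at 492 CPM, lay within the control range of 450 to 657 CPM. The log2 fold change was -0.60 (SE 0.24) and did not pass the threshold of 0.05 in edgeR's quasi-likelihood test (adjusted p = 0.227). The call turned with the scaling: the value was -0.94 with library sizes only (adjusted p = 0.00386), and in TPM with a pseudocount of 1 limma gave -1.28 (adjusted p = 0.000535). Of all calls in the table, 92.9% were lower with library sizes only and 97.5% in that TPM fit. The direction of Sult2a8 was the same in all of these, opposite to that of the 4 members.

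In TPM, Sult2a8 had 184, 240, 304 and 219 in the resmetirom libraries and 459, 693, 564 and 572 in the control libraries, with no overlap on this scale. The share of all genes without overlap in TPM was not counted, and 97.5% of limma's calls on log2(TPM + 1) were lower. The lack of overlap in TPM is therefore no result particular to Sult2a8. Members and Sult2a8 together summed to 2301 ± 961 TPM in resmetirom livers and 572 ± 95.5 TPM in control livers (SD, n = 4 each). Sult2a8 was 5.35 to 20.7% of that sum in resmetirom libraries and 99.9 to 100% in control libraries. The 4 members exceeded Sult2a8 by 17.7, 3.83, 5.59 and 10.9 times in resmetirom replicates 1 to 4.

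**Figure D4:**
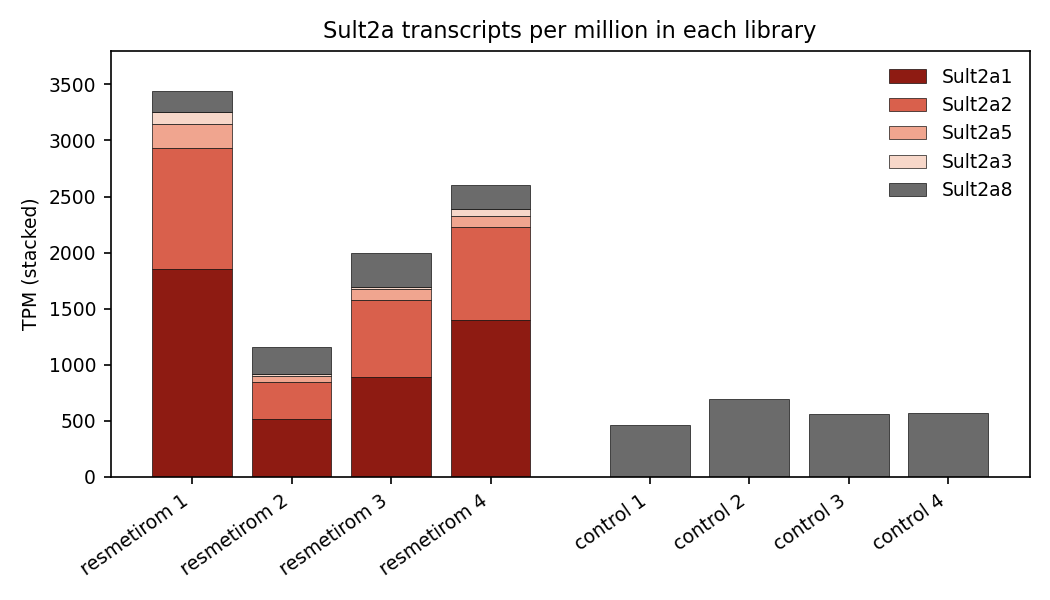
TPM of Sult2a1, Sult2a2, Sult2a5, Sult2a3 and Sult2a8 stacked for each library, resmetirom left and control right. The control bars consist almost wholly of Sult2a8 at 459 to 693 TPM, and the resmetirom bars of Sult2a1 and Sult2a2 for the most part, with replicate 2 the lowest.

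The rest of the cluster was near silent. Sult2a4, 93.8 to 95.4% identical to the members over aligned coding bases, had 0 reads in all 8 libraries, so the reads of its close relatives were not spread evenly over all copies. Sult2a6 had 9, 0, 0 and 5 reads in the resmetirom libraries and 0 in the control libraries. Sult2a7 had 16, 44, 27 and 20 reads in resmetirom and 22, 57, 9 and 25 in control libraries, which overlap (log2 fold change 0.35, SE 0.53, edgeR adjusted p = 0.813). The sign for Sult2a7 turned to -0.029 on the log2(TPM + 1) scale. Sult2b1, a cholesterol sulfotransferase elsewhere in the genome, had 2 reads in resmetirom replicate 1 and 0 in the other libraries.

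The annotated neighbours of the cluster did not carry the counts of the members. Bsph2, the gene before it, had 0 reads in both groups. Obox8, which lies inside it, had 15 reads over the resmetirom libraries and 3 over the control libraries. The gene after it, Obox4-ps1, and the 17 pseudogenes inside, 4 of them Sult2a copies, were not used here.

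The spread of the members within the resmetirom group had a common shape. Replicate 2 was the lowest library for each of the 4 genes on the CPM and the TPM scale, and replicate 1 was the highest for all of them except Sult2a2 in CPM, where replicate 4 stood at 483 and replicate 1 at 479. Replicate 1 also had a TMM factor of 1.06, near the 1.08 to 1.16 of the control libraries, against 0.804 to 0.880 in resmetirom replicates 2 to 4. Leaving out each library in turn gave log2 ratios of the family sum between 13.29, without control replicate 2, and 14.84. Without resmetirom replicate 1 it was 13.53. The highest value came without control replicate 3, which held 6 of the 9 control reads.

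Other genes of the pathway were read against the whole table, in which edgeR called 560 of 12207 genes (4.59%), 317 higher (2.6%) and 243 lower (1.99%) in resmetirom, with p-values adjusted by the Benjamini-Hochberg method and a threshold of 0.05. Over all tested genes the log2 fold change had a median of -0.0045. This split turns on the scaling, since 92.9% of calls were lower with library sizes only, against 43.4% with TMM, and the median of all genes was then -0.31. Directions below are therefore relative to TMM scaling. The lists were drawn up with earlier results of these data known, so a list's count is a description and not independent evidence.

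Of the other cytosolic sulfotransferases, 7 of 17 could be tested, and 3 rose with none lower (42.9% called, median log2 fold change 0.35). Sult1a1, the main phenol sulfotransferase of liver, averaged 438 ± 39.0 CPM in resmetirom livers and 228 ± 38.5 CPM in control livers (SD, n = 4 each), a log2 rise of 0.94 (SE 0.12, adjusted p = 0.000793). Sult5a1 rose by 2.38 (SE 0.38, adjusted p = 0.00338) from a far lower level, 4.07 ± 1.29 CPM in resmetirom against 0.773 ± 0.324 CPM in control livers. Sult1d1, which sulfates catecholamines, rose by 0.58 (SE 0.14, adjusted p = 0.0308), a call lost with library sizes only and without resmetirom replicate 2 or 4 or control replicate 1, 2 or 4 (adjusted p = 0.0644 to 0.0984 without these libraries). None of the 3 shared the near absence from control livers that marked the 4 Sult2a genes.

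Sult3a1 and Sult1e1, the estrogen sulfotransferase, were too rare to be tested, with 46 and 25 reads over the resmetirom libraries, against 1 and 7 over the control libraries.

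In the supply of sulfate and of PAPS, the donor that all sulfotransferases need, 1 of 10 tested genes rose and none fell (10% called, median 0.054). Papss2, the PAPS synthase that prevails in liver, averaged 150 ± 3.33 CPM in resmetirom livers and 98.2 ± 18.5 CPM in control livers, a log2 rise of 0.61 (SE 0.12, edgeR adjusted p = 0.0119). Without control replicate 4 the call was lost (0.56, adjusted p = 0.0550), as it was when only library sizes scaled the counts (0.30, adjusted p = 0.130). Papss1, the other synthase, was at -0.36 (SE 0.21, adjusted p = 0.433), and the sulfate transporter Slc26a1 at 0.21 (SE 0.21, adjusted p = 0.684).

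Transporters of steroid conjugates and bile acids split evenly, as 3 rose and 3 fell among 12 tested (50% called, median 0.098). Abcc3, which exports conjugates across the basolateral membrane, averaged 30.9 ± 9.83 CPM in resmetirom and 215 ± 15.7 CPM in control livers, and fell by 2.80 in log2 units (SE 0.22, edgeR adjusted p = 0.000128). Abcg2, an apical exporter that accepts sulfated steroids, fell by 0.89 (SE 0.10, adjusted p = 0.000356). Slc10a1, the main uptake carrier of conjugated bile acids, rose by 0.91 (SE 0.16, adjusted p = 0.00632), and the phospholipid exporter Abcb4 by 0.40 (SE 0.09, adjusted p = 0.0241). The Abcb4 call was lost without resmetirom replicate 3 or 4 or control replicate 2 or 4 (adjusted p = 0.0651 to 0.0913). It was also lost with library sizes only (0.09, edgeR adjusted p = 0.590). The Abcb4 value turned to -0.107 on the log2(TPM + 1) scale, where the Slc10a1 call was lost too (0.42, adjusted p = 0.101). Without resmetirom replicate 3 or 4 or control replicate 4 the list had 3 calls instead of 6.

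Enzymes that make or modify hydroxysteroids and bile acids also split, with 4 that rose and 4 that fell among 18 tested (44.4% called, median 0.19). Cyp17a1, which forms dehydroepiandrosterone from its precursor, averaged 251 ± 75.0 CPM in resmetirom and 9.53 ± 5.41 CPM in control livers (SD, n = 4 each), a log2 rise of 4.72 (SE 0.50, edgeR adjusted p = 0.00285). Cyp39a1, an oxysterol hydroxylase, rose by 1.32 (SE 0.09, adjusted p = 9.14e-06). Srd5a1, a steroid reductase, fell by 1.22 (SE 0.12, adjusted p = 0.000128), and Hsd3b3, a hydroxysteroid dehydrogenase, fell by 1.27 (SE 0.20, adjusted p = 0.00619). The bile acid synthesis gene Cyp7a1, which controls the rate of the classic route, was at 1.31 (SE 0.63, adjusted p = 0.357). Without resmetirom replicate 4 the list had 5 calls instead of 8.

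Of 23 tested nuclear receptors and liver transcription factors, several of which are known to act on SULT2A genes in human or rodent cells, 1 rose and 1 fell (8.7% called, median -0.067). Rxra, the shared partner of many nuclear receptors, rose by 0.34 (SE 0.08, adjusted p = 0.0386). The Rxra call was lost when any 1 library was left out, and with library sizes only (0.03, edgeR adjusted p = 0.872). Its value turned to -0.139 on the log2(TPM + 1) scale. The transcripts of the bile acid receptor gene Nr1h4 (0.07, SE 0.13), of Nr1i2 (-0.34, SE 0.13), of Nr1i3 (0.24, SE 0.13) and of the thyroid hormone receptor gene Thrb (-0.28, SE 0.15) did not pass the test.

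In the growth hormone and STAT5 axis, 1 of 10 tested genes rose and none fell (10% called, median -0.050). It was Prlr, the prolactin receptor, at 96.2 ± 11.1 CPM in resmetirom and 41.9 ± 9.09 CPM in control livers (log2 fold change 1.20, SE 0.15, edgeR adjusted p = 0.000793). The transcript of Stat5b, the transducer of growth hormone in liver, was at 0.02 (SE 0.13, adjusted p = 0.964), and that of the receptor Ghr at -0.21 (SE 0.14, adjusted p = 0.505). Cux2, a repressor known from female livers, was too rare to test, with 101 reads over the resmetirom libraries and 11 over the control libraries.

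Female-biased liver genes went the way of the members. Of 17 tested, 10 rose and none fell (58.8% called, median log2 fold change 3.32, the same with genes lacking control reads set at their lower bound). Prlr, the call of the growth hormone axis, is on this list too and is counted again among the 10. Slc22a27, an organic anion transporter, averaged 54.0 ± 17.7 CPM in resmetirom and 3.49 ± 0.526 CPM in control livers, a rise of 3.95 (SE 0.24, edgeR adjusted p = 9.14e-06). Its relative Slc22a29 rose by 4.18 (SE 0.30, adjusted p = 9.14e-06) and the steroid hydroxylase Cyp2a4 by 3.32 (SE 0.24, adjusted p = 0.000103). Cyp3a44 had 724, 352, 436 and 722 reads in the resmetirom libraries and 0 in every control library, at least 999-fold more over a floor of 3 counts (adjusted p = 0.000171). It passed the filter on low counts through its resmetirom libraries alone, so this p-value is no independent support. Not every gene of the list followed, and Cyp2b9 stood at -0.62 (SE 0.79, adjusted p = 0.775).

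Of 15 tested male-biased liver genes, 7 fell and 0 rose (46.7% called, median -2.2). Cyp2d9 averaged 111 ± 22.6 CPM in resmetirom and 804 ± 50.9 CPM in control livers, and fell by 2.86 in log2 units (SE 0.14, edgeR adjusted p = 3.05e-07). Mup20, a male pheromone-binding urinary protein, averaged 998 ± 362 CPM in resmetirom and 15533 ± 1393 CPM in control livers, and fell by 3.96 (SE 0.25, adjusted p = 2.68e-05). Cyp4a12a fell by 6.72 (SE 0.47, adjusted p = 0.000343) and Cyp4a12b fell by 6.45 (SE 0.49, adjusted p = 0.000478). Members of this list with values above 0 were Cyp7b1, an oxysterol hydroxylase, at 0.73 (SE 0.19, adjusted p = 0.0550) and higher in each resmetirom library than in any control library, and Bcl6 at 0.89 (SE 0.98, adjusted p = 0.726). DESeq2, the fit with the replicate block and the fit without control replicate 1 each called 1 member higher. The change of sex-biased genes was already known from these libraries when the lists were drawn up, so these counts add no independent support to it.

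**Figure D5:**
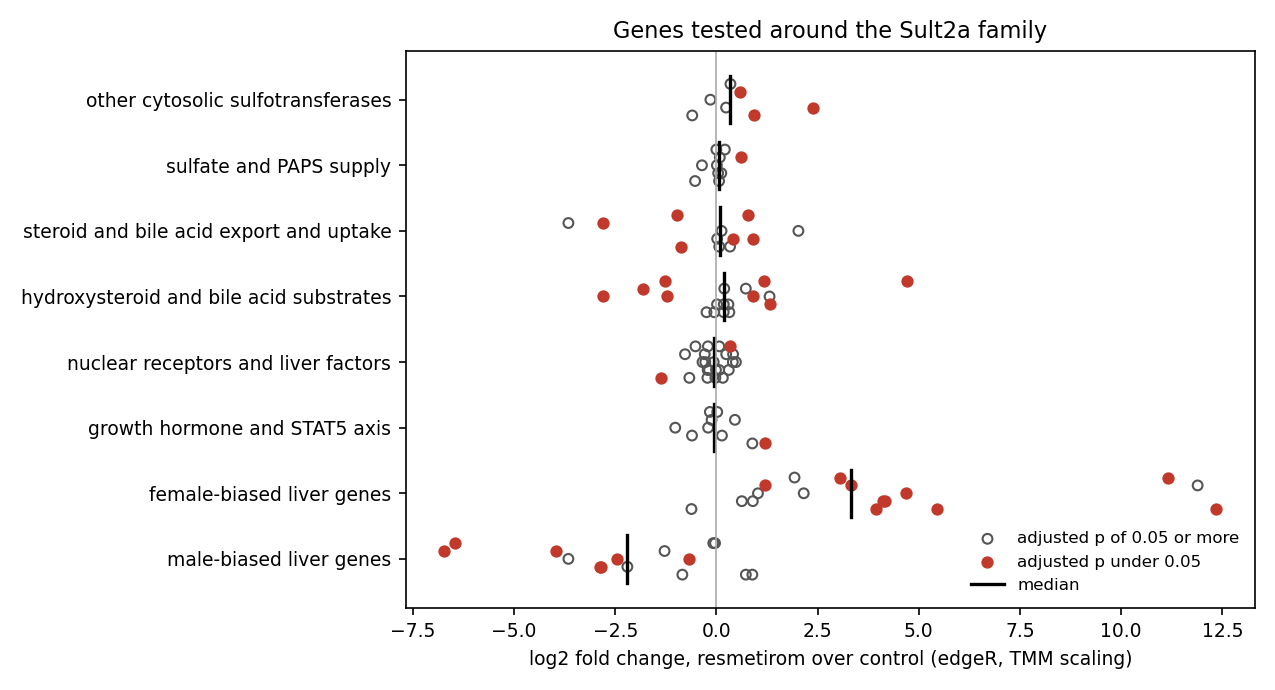
Log2 fold change of resmetirom over control (edgeR, TMM scaling) for each tested gene of 8 lists, filled where the adjusted p was under 0.05, with the list's median as a bar. Female-biased genes lie mostly right of 0 (median 3.32), male-biased genes mostly left (median -2.2), and the medians of the other lists lie between -0.07 and 0.35. The 4 Sult2a genes themselves are not drawn.

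Since the members are known as sex-biased genes and the labels name no sex, transcripts of the Y chromosome were read in every library. Ddx3y averaged 60.5 ± 8.64 CPM in resmetirom and 60.6 ± 13.6 CPM in control livers, and Eif2s3y 56.0 ± 3.51 and 57.4 ± 5.81 CPM. Kdm5d averaged 9.10 ± 1.39 CPM in resmetirom and 10.6 ± 1.19 CPM in control livers, and Uty 13.1 and 11.4 CPM (± SD where given, n = 4 each). All 4 Y-linked genes were present in all 8 libraries, and edgeR called 0 of them, with 0 at an unadjusted p under 0.05. With limma, Kdm5d was called lower, at -0.56 (adjusted p = 0.0236) with a pseudocount of 1 TPM and at -0.80 (adjusted p = 0.0267) with 0.1 TPM. Xist was not used here.

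The libraries carried the defining markers of hepatocytes, and other organs that could contribute RNA were checked in the same way. The 7 hepatocyte markers summed to 92770 to 102420 CPM in resmetirom libraries and 78076 to 88429 CPM in control libraries. Fabp1 alone was called (0.49, SE 0.11, edgeR adjusted p = 0.0206). The Fabp1 call was lost with library sizes only (0.18, edgeR adjusted p = 0.273) and without resmetirom replicate 3 or 4 or control replicate 2 or 4. Its value turned to -0.015 on the log2(TPM + 1) scale. Most of each hepatocyte sum was Alb, at 73145 ± 2680 CPM in resmetirom and 58243 ± 3631 CPM in control livers (SD, n = 4 each). Cyp2e1 (log2 fold change -0.27, SE 0.11) and Ttr (-0.09, SE 0.12) lay below 0, and the other hepatocyte markers above it. The hepatocyte sums did not overlap between the groups, and their part in the other results was not tested. Of 5 intestinal markers Sis had 0 reads in all libraries, Vil1 1 read in resmetirom and 5 in control libraries, and Cdh17 2 and 5 reads. Their summed level was 203 to 216 CPM in resmetirom and 185 to 215 CPM in control libraries, nearly all of it Fabp2 at 206 ± 5.89 CPM in resmetirom and 192 ± 13.5 CPM in control livers (SD, n = 4 each), and Lgals4 was at 0.60 (SE 0.24, adjusted p = 0.220).

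Of 5 adrenal cortex markers, Cyp11a1, Cyp11b1 and Mc2r had 0 reads everywhere, Cyp21a1 had 0 in resmetirom and 23 in control libraries, and the list summed to 1.76 to 4.00 CPM in resmetirom and 0.884 to 2.50 CPM in control libraries. Star, which made up the whole sum in resmetirom libraries, was at 0.73 (SE 0.46, edgeR adjusted p = 0.468). Cyp21a1 had 11, 3, 7 and 2 reads in control replicates 1 to 4. In control replicate 1 it stood at 0.512 CPM, above Star at 0.372 CPM. Of 4 kidney markers all were at 0 but for 1 read of Slc34a1 in a control library. Of 4 pancreas markers Prss2 and Pnlip were at 0 and Cpa1 had 0 reads in resmetirom and 2 in control libraries. Cela1 carried the pancreas sum of 5.58 to 6.43 CPM in resmetirom and 3.30 to 5.09 CPM in control libraries (0.52, SE 0.19, adjusted p = 0.166). Cela1 was higher in each resmetirom library than in any control library, and its part in the other results was not tested.

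The genes most like the family sum were sought among 11600 genes of at least 1 CPM on average, by the root-mean-square difference of centred log2 CPM over the 8 libraries. Cyp3a44 came nearest at 2.33, with 40.8, 22.8, 29.0 and 48.9 CPM in resmetirom replicates 1 to 4 and 0 in control. Cyp3a41a followed at 2.58, with 170, 4.87, 22.4 and 79.0 CPM in resmetirom and 2 reads in control replicate 3 alone. Both are cytochromes P450 known as female-biased in mouse liver. Like the Sult2a genes, the Cyp3a, Cyp4a12, Slc22a and Mup genes named here have close copies, so the split of reads within those families is uncertain as well. Shared sequence was searched for the Sult2a genes only, so the same may hold for Cyp2a4, Cyp2d9, Hsd3b3 and other named genes.

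Akr1c18, a hydroxysteroid dehydrogenase, stood at 2.72, with 27.9, 30.4, 30.5 and 37.0 CPM in resmetirom and 0.0931, 0.145, 0 and 0 CPM in control livers. Sqle, the squalene epoxidase of cholesterol synthesis, stood at 2.80, with 119, 61.4, 30.3 and 85.5 CPM in resmetirom and 0.838, 0.145, 0.136 and 0.198 CPM in control livers. Cyp3a16 (3.41) had 83.9, 1.36, 6.46 and 10.8 CPM in resmetirom and 0 in control livers. Mup9, a major urinary protein gene (3.54), had 3757, 25369, 34888 and 21067 CPM in resmetirom and 409, 276, 91.3 and 151 CPM in control livers. All of these genes were higher in each resmetirom library than in any control library, as were 6.32% of the 12207 genes tested. The search favours this, because the family sum itself differs so far between the groups, so the separation of these genes is no independent result. Within the resmetirom group they differ, since Cyp3a41a and Cyp3a16 are highest in replicate 1 and lowest in replicate 2, as Sult2a1, Sult2a5 and Sult2a3 are, while Mup9 is lowest in replicate 1. Sult2a2 is lowest in replicate 2 too, but highest in replicate 4.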

How the data were processed

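The authors deposited whole-number counts per gene and library and TPM values, per the file headers, and the submitters' processing notes name mm10, HISAT2 2.1.0, Bowtie2 2.2.8, RSEM and StringTie 1.3.1, beside fastp 0.18.0, without a role. Read length, strand handling and the treatment of reads with several matches are not given in the sources used here. Beside these, the authors' group means of TPM (used as a score, with 0 written as 0.001), log2 ratio and p-value columns are also in the deposited table, and the tool behind the p-values is not stated. TPM values fix the sum of each library, so a few abundant genes that change shift all others.

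The 4 members and all lists were chosen with earlier results of these data known. The count test was that of edgeR 4.0.16 under R 4.3.3 (filterByExpr, TMM, robust glmQLFit and glmQLFTest, Benjamini-Hochberg adjustment over 12207 genes, threshold 0.05), and 5994 of 22013 genes had no counts. Each SE is the log2 fold change divided by the square root of F. limma 3.58.1 on log2(TPM + 1) or log2(TPM + 0.1), DESeq2 1.42.0, other scalings and filters, and leaving out each library were alternatives. Named genes were the members, all other Sult2 genes, up to 4 called genes of each list with the smallest p (else the one with the smallest p), the 6 genes most like the family and the cluster's neighbours. Sult3a1, Sult1e1, Papss1, Slc26a1, Cyp7a1, Nr1h4, Nr1i2, Nr1i3, Thrb, Stat5b, Ghr, Cux2, Cyp2b9, Cyp7b1, Bcl6, Obox8, Alb, Cyp2e1 and Ttr were named after their values were seen. The values of 1 gene that the naming rule selected are not reported here. No read-level data were used. All 8 libraries were used, and 0 per-sample columns were left unmatched. Positions came from GENCODE M21, which held 99.2% of the deposited gene identifiers, and promoters from RefSeq (GRCm38.p6). The tests were checked on simulated counts.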

Additional observations from a re-analysis of the deposited data

Results flagged for a closer look

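Of 86 groups of 4 libraries that were examined for a library far from the others, 9 stood out. The rule flags about 1 in 20 groups of normally distributed values, which low counts are not. Where all other libraries of a group were at 0, as for Sult2a1, Cyp3a41a and Sult2b1 below, any read is flagged. The number that stood out is therefore no measure of an excess. In resmetirom livers Sult2a2 was lowest in replicate 2 at 194.7 CPM, with the next library at 456.4 CPM. The Sult2a1 reads of the control group all lay in replicate 3, at 0.1362 CPM, and those of Cyp3a41a likewise at 0.09082 CPM, with the other control libraries at 0 for both. Cyp3a16 stood out in resmetirom replicate 1 at 83.88 CPM, with the next at 10.77 CPM, and Prlr was lowest in resmetirom replicate 4 at 79.64 CPM, with the next at 101.1 CPM. Sult2b1 had its only reads in resmetirom replicate 1, at 0.1127 CPM. In control livers Sqle was highest in replicate 1 at 0.8377 CPM (next 0.1977 CPM), Slc10a1 was highest in replicate 2 at 404.5 CPM (next 282 CPM), and Star was lowest in replicate 1 at 0.3723 CPM (next 1.886 CPM).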

How the results depend on the processing

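The family stayed far higher in resmetirom libraries throughout. Its log2 ratio of 13.69 became 10.59 on the log2(TPM + 1) scale and 12.95 on the log2(TPM + 0.1) scale, where the pseudocount bounds it, and 13.29 to 14.84 when 1 library was left out, the last without control replicate 3. The 560 calls of the whole table became 2112 with library sizes only, 909 with DESeq2, 4838 with log2(TPM + 1) and 4783 with log2(TPM + 0.1) (97.5% and 97.4% lower), and 331 to 544 with 1 library left out (331 without control replicate 4, 369 without resmetirom replicate 4). The 37 calls in the lists became 65 and 63 on the 2 TPM scales and 25 to 36 with 1 library left out. In the list of nuclear receptors and liver factors, 2 calls became 8 with library sizes only and 13 on both TPM scales, all lower. The list of female-biased genes had 16 calls with DESeq2. Of the 6 most alike genes, 5 or 6 were shared with library sizes only, with DESeq2's size factors, under both other filters and without each library in turn, alternatives added after seeing the data.

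Values below 0 that were positive before came for Sult2a7 (-0.029 on log2(TPM + 1), -0.0089 to 0.95 with 1 library left out), Star (-0.035 on log2(TPM + 1)), and, with a TPM pseudocount of 1 or 0.1, Abcb4 (-0.107, -0.107), Rxra (-0.139, -0.140) and Fabp1 (-0.0148 on both). The cause was not tested. The labels do not state that replicate numbers shared between the groups pair the samples. Same-number correlations were -0.325, 0.184, -0.186 and -0.061, and those of unlike numbers -0.154 to 0.323, which cannot decide whether samples are paired. A replicate block gave 406 calls, 34 in the lists and a family log2 fold change of 13.61. Depth limits what the control libraries show: 0 reads of Sult2a5 and Sult2a3 allow up to 3, or 0.0355 CPM, over the group.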
